A study of Mus musculus with 12 samples.

Results

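The lysosomal gene group described here holds 33 mouse genes that encode lysosomal hydrolases, lysosomal membrane proteins, subunits of the proton pump and 3 transcription factors of the MiT family (Tfeb, Tfec and Mitf). They were chosen by gene symbol, and gene positions are those of GENCODE M21 on the build GRCm38. The members and the other gene lists below were chosen with earlier results of these data known. Their counts beside those of all genes are therefore description. All 33 were found among the 53379 gene identifiers of the count files, and all 33 passed the filter on low counts that left 16554 genes for testing. RNA was sequenced from perigonadal white adipose tissue, a visceral fat depot, of C57BL/6 mice that were 9 weeks old and ate standard chow. The ko mice carried an adipose-specific knockout of Cdk7, a kinase that acts in transcription and the cell cycle, and the wt mice were control littermates. Each genotype received injections of CL or of saline for 7 days, and tissue was taken at zeitgeber time 9. The drug is named by its abbreviation alone. In adipose research CL usually stands for an agonist of beta-adrenergic receptors on fat cells. The 4 groups were ko CL, ko saline, wt CL and wt saline, with 3 libraries each. Each library was a pool of RNA from 2 mice, which makes 6 mice per group, and p-values measure the spread between such pools. The labels used here do not name the Cre line or promoter that drives the knockout, and whole tissue was taken, so cells other than adipocytes are in every library.

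A lysosome breaks down proteins, lipids and glycans with hydrolases that work at acid pH. The acid is made by the vacuolar proton pump, in which a cytosolic V1 part hydrolyses ATP and a membrane V0 part moves protons. Tfeb, Tfe3, Mitf and Tfec bind short E-box motifs, and in mammalian cells Tfeb and Tfe3 are known to switch on many lysosomal genes when they are released from control by mTORC1 at the lysosome surface. In adipose tissue, lysosomes are known for the breakdown of lipid that macrophages take up from adipocytes.

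Depth was 21892817 to 27985019 gene counts per library. CPM, the unit of level, is a gene's count relative to its library's TMM-normalized total, and differences are given as log2 fold changes with standard error from edgeR's quasi-likelihood test, called at a Benjamini-Hochberg adjusted p below 0.05 over all 16554 genes. Cdk7, the targeted gene, had 23.6, 19.5 and 18.1 CPM in ko CL, 11.02, 11.7 and 11.5 CPM in ko saline, 32.2, 30.4 and 35.4 CPM in wt CL and 29.7, 29.98 and 29.3 CPM in wt saline. No ko library overlapped a wt library (11.02 to 23.56 CPM in ko against 29.29 to 35.43 CPM in wt, two-sided exact permutation test over 924 regroupings, p = 0.002165). Within ko, Cdk7 was higher with CL (log2 fold change 0.84 ± 0.10 SE, adjusted p = 1.01e-05). Groups were taken from the sample titles. The genotype field of the labels varies with treatment and disagrees with 6 titles. Adipoq, the adipocyte hormone adiponectin, averaged 1279 ± 197 CPM in ko CL, 3371 ± 116 CPM in ko saline, 2767 ± 134 CPM in wt CL and 3334 ± 306 CPM in wt saline (SD, n = 3 each), and was thus abundant in every library.

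Promoter sequences of the members are shown first because the E-box bound by MiT factors can be read in them. RefSeq start sites of the build GRCm38.p6 gave windows from 250 bases before to 50 bases after the start for 27 of the 33 members. The motif CACGTG, which reads the same on both strands, was in a window of 10 of these 27 members (37%), against 8.09% of 27025 genes. The longer motif TCACGTGA, which contains it, was in 6 of 27 members (22.2%), against 1.12% of all genes. The related motif CATGTG, searched on both strands, was in 4 of 27 members (14.8%), against 15.9% of all genes. The first stretches come from members with more than 1 copy of CACGTG close together and from Atp6v0d1, whose level did not pass the test in ko. Each is written 5′ to 3′ on the strand of its gene, with CACGTG in capitals.
Gla, chrX:134601172-134601254, minus strand: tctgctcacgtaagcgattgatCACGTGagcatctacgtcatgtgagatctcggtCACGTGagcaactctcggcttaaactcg
Ctsa, chr2:164833739-164833805, plus strand: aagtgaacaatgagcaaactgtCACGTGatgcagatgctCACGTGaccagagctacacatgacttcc
Lamp1, chr8:13159078-13159173, plus strand: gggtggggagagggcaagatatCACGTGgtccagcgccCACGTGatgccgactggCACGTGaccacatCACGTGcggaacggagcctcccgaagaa
Mcoln1, chr8:3500426-3500501, plus strand: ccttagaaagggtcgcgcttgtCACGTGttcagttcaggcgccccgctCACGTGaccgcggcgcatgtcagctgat
Atp6v0d1, chr8:105566040-105566089, minus strand: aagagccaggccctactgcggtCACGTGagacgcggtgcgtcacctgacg

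The next stretches are from members that have a window without CACGTG, among them Ctss and Ctsk, with the largest responses described further on. Lipa, also without CACGTG in its window, responded more than Mitf and is not printed. The single capital marks the annotated start base, and for Mitf the most upstream of 3 starts is shown.
Ctss, chr3:95526726-95526805, plus strand: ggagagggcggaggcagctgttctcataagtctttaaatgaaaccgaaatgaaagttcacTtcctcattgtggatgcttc
Ctsk, chr3:95499150-95499229, plus strand: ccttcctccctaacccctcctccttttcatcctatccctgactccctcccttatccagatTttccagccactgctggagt
Mitf, chr6:97806998-97807077, plus strand: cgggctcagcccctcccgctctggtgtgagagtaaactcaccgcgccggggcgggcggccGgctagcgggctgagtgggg

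A motif match is a description of the letters and not a shown binding site. The 10 members with CACGTG had a median log2 fold change of 0.712 for CL against saline in ko, with 8 higher and 1 lower, where 27.2% of all genes tested were higher and 27.5% lower. The 17 members whose windows lack it had a median of 1.51, with 15 higher. The 6 members with no window had a median of 1.19, with 5 higher. Among the members printed with CACGTG, Gla was at 2.71 and Ctsa at 1.68, while Lamp1 was at 0.38, Mcoln1 at 0.34 and Atp6v0d1 at 0.10 (adjusted p = 0.193). Ctsf holds CACGTG and was at -0.68. Ctss, Ctsk, Lipa and Mitf, without it in their windows, were at 4.01, 3.31, 2.92 and 2.16.

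CL treatment of ko mice raised most of the lysosomal group. Of the 33 members, 28 were higher in ko CL than in ko saline (84.8%) and 1 was lower, where 27.2% of all genes tested were higher and 27.5% lower. The members' median log2 fold change was 1.37 (range -0.684 to 4.01), against -0.0099 over all genes. In 20 members the log2 fold change was 1 or more, and in 6 it was 2 or more. The libraries of ko CL and ko saline did not overlap in 29 members, where they did not overlap in 60.9% of all genes tested. Together the 33 genes took 26580 to 35510 CPM in ko CL against 10650 to 11260 CPM in ko saline, and their mean share of all counts was 3.092% in ko CL and 1.093% in ko saline.

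CL in wt mice gave another picture. There 4 members were higher and 12 lower in wt CL than in wt saline, against 19.6% higher and 17.1% lower among all genes, with a member median of -0.104 and changes between -0.583 and 0.691. When libraries were scaled by their totals alone, the split was 2 higher and 25 lower, beside 8.03% and 48.6% of all genes. That scaling shifted the all-gene median to -0.327. Without the second wt CL library, 6 members were lower, beside 12.3% of all genes. Of the 12 lower members, 5 kept the call with each of the 12 libraries left out in turn. Of the 28 members higher in ko, 10 were among the 12 that were lower in wt and 3 among the 4 that were higher in wt, and the other 15 were not called in wt.

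How far CL acted differently in ko and wt was tested as an interaction, which was positive in 27 members and negative in 1, against 21.8% and 23.6% of all genes. Its median over the members was 1.34, against -0.0277 over all genes. Under CL, 28 members were higher in ko than in wt and 1 was lower, against 27.6% higher and 29.3% lower among all genes (member median 1.44). Under saline, 6 members were higher in ko than in wt and none was lower, against 7.99% and 6.45% of all genes (member median 0.168). The comparisons share libraries with each other, so each is given by its own values.

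**Figure D1:**
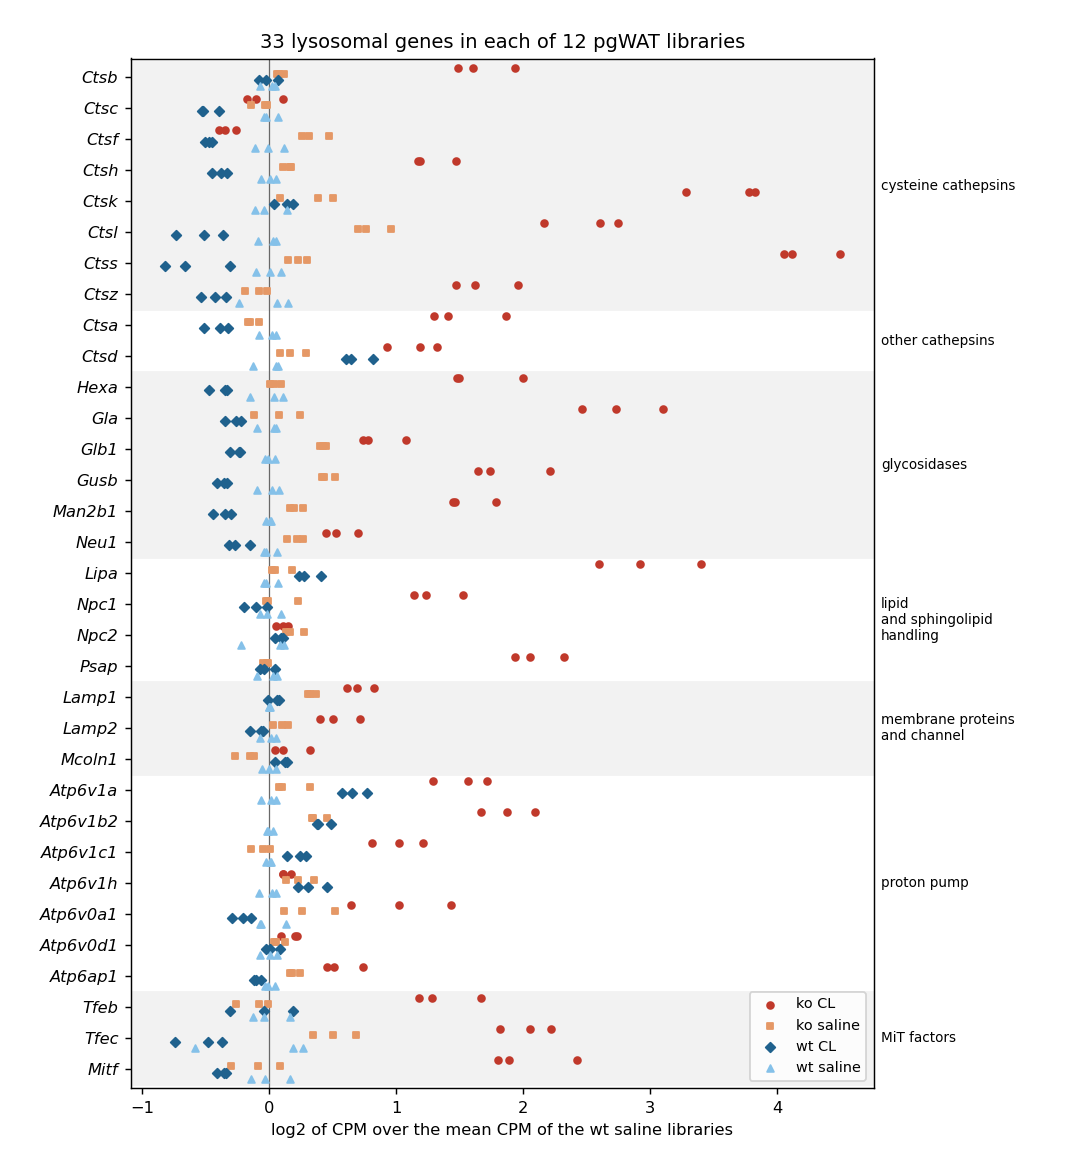
Each point is 1 library: the horizontal axis gives log2 of its CPM over the mean CPM of the wt saline libraries, and the rows are the 33 lysosomal genes by role, with 3 points per group. The ko CL points stand to the right in most rows, farthest in Ctss, Ctsk and Lipa, and lie among the other groups in Ctsf, Npc2 and Atp6v1h. In Ctsc, Mcoln1 and Atp6v0d1, part of the ko CL points lie above all other groups and part among them.

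Markers of several cell types moved with the CL response in ko. Markers of macrophages (20 genes, 19 tested) summed to 10900 to 15820 CPM in ko CL, 1730 to 1820 CPM in ko saline, 981.4 to 1201 CPM in wt CL and 1801 to 1892 CPM in wt saline. Of these markers, 17 were higher and 2 lower for CL against saline in ko, and none was higher and 13 were lower in wt. The shares of all genes were 27.2% higher and 27.5% lower in ko, and 19.6% and 17.1% in wt. Adgre1, the macrophage surface protein F4/80, averaged 767 ± 209 CPM in ko CL, 71.4 ± 2.72 CPM in ko saline, 42.95 ± 4.74 CPM in wt CL and 67.3 ± 3.76 CPM in wt saline. Cd68, a glycoprotein of macrophage lysosomes, was 14.2-fold as high in ko CL as in ko saline. Gpnmb, a glycoprotein in lysosomes of lipid-rich macrophages, had 3901, 2329 and 3249 CPM in ko CL and 17.5, 19.2 and 24.7 CPM in ko saline. The 2 markers lower in ko were Lyve1 and Cd163. Lyve1 had 12.9, 10.5 and 15.3 CPM in ko CL and 56.6, 51.5 and 46.8 CPM in ko saline. Cd163 had 59.2, 54.8 and 59.7 CPM in ko CL and 106.6, 93.8 and 106.2 CPM in ko saline. Itgam was counted at 0 in all libraries and was not tested, and whether this reflects its level is not known from the sources used here.

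Markers of adipocytes (12 genes) summed to 8577 to 13000 CPM in ko CL, 17650 to 19690 CPM in ko saline, 31670 to 34780 CPM in wt CL and 27700 to 30440 CPM in wt saline. In ko, 10 of them were lower with CL and none was higher, beside 27.5% and 27.2% of all genes. Pparg, the adipocyte transcription factor, averaged 215 ± 39.7 CPM in ko CL and 285 ± 7.72 CPM in ko saline (log2 fold change -0.41 ± 0.11 SE, adjusted p = 0.00879). Between ko CL and ko saline the mean summed level of the 33 lysosomal genes changed by a ratio of 2.83, that of the macrophage markers by 7.44 and that of the adipocyte markers by 0.609. Between wt CL and wt saline the ratios were 0.963, 0.6 and 1.12. Large parts of the macrophage sum in ko CL came from Lyz2 (5859, 4321 and 5012 CPM) and Gpnmb (3901, 2329 and 3249 CPM). A macrophage ratio without them was not computed. In wt, 2 adipocyte markers were higher and 3 lower with CL (median -0.067), beside 19.6% and 17.1% of all genes. Without Fabp4, left out after its values were seen, the adipocyte ratio was 0.539 in ko and 0.908 in wt. In such whole-tissue samples, more cells of a type and more RNA per cell cannot be told apart, and the part of the cell content in the lysosomal result was not tested.

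Other marker lists also moved with CL in ko, where 27.2% of all genes tested were higher and 27.5% lower. Of 6 neutrophil and mast cell markers, 4 were higher and 1 lower, with sums of 90.86 to 96.33 CPM in ko CL and 38.54 to 41.1 CPM in ko saline. Of 8 fibroblast and progenitor markers, 4 were higher and 1 lower, with sums of 5753 to 7122 CPM in ko CL and 3359 to 4286 CPM in ko saline. All 6 endothelial markers were lower, with sums of 524.9 to 689.9 CPM in ko CL and 914.1 to 948.1 CPM in ko saline. All 7 genes of ciliated duct epithelium, tissue next to the fat pad, were lower, with sums of 5.69 to 11.62 CPM in ko CL and 80.61 to 109.1 CPM in ko saline. Of 6 mesothelial markers, 1 was higher and 3 lower. Of 6 B and plasma cell markers 2 were higher, and none of 6 T cell markers was called. The part of these cells in the lysosomal result was not tested.

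The first ko CL library was the highest of its group in 31 of the 33 members. It also had the highest macrophage sum and the lowest adipocyte sum of the ko CL libraries. Without it, 28 members were again higher in ko CL than in ko saline. The second ko CL library had 2909 CPM of B and plasma cell markers, against 442.1 and 551.5 CPM in the other two, and was the lowest of its group in 23 members.

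**Figure D2:**
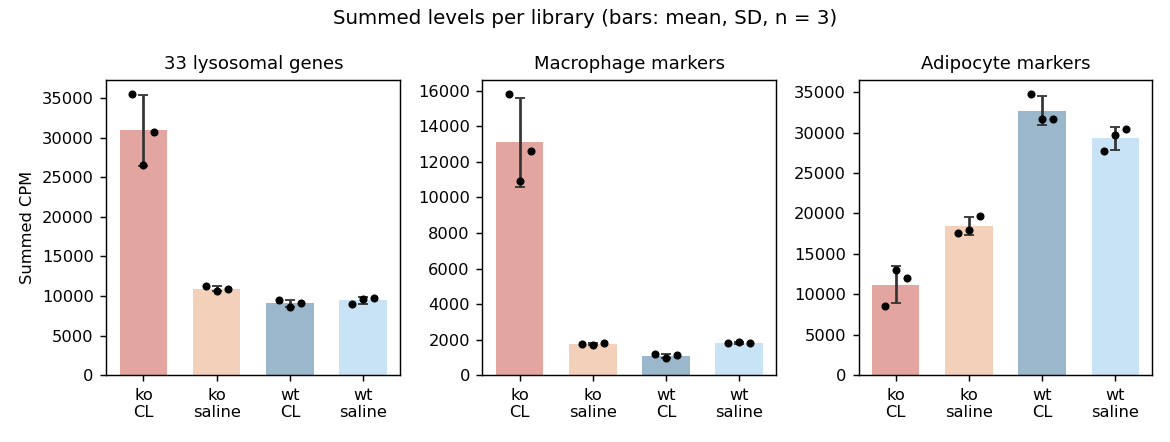
The panels show the summed CPM of the 33 lysosomal genes, of the macrophage markers and of the adipocyte markers, with 1 point per library and bars for the mean and SD of 3 libraries. The lysosomal and macrophage sums are highest in ko CL, where the adipocyte sum is lowest, and in each of these panels the first ko CL library lies farthest from ko saline.

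Cysteine cathepsins, the proteases that cut proteins with a cysteine in the active site, included the largest responses. Of these 8 members, 6 were higher and 1 lower with CL in ko (median 1.66), and 6 were lower with CL in wt (median -0.455). Of all genes tested, 27.2% were higher and 27.5% lower in ko, and 17.1% were lower in wt. Ctss had 1923, 1414 and 1484 CPM in the ko CL libraries, 94.6, 105 and 99.9 CPM in ko saline, 68.7, 48.2 and 53.96 CPM in wt CL and 79.4, 90.8 and 85.8 CPM in wt saline. Ctss (ENSMUSG00000038642, chromosome 3, 95526786 to 95556403), a protease of antigen-presenting cells that processes the invariant chain, was more than an order of magnitude higher in each ko CL library than in any library of the other groups. Its log2 fold change was 4.01 ± 0.15 (SE, adjusted p = 2.83e-09) in ko and -0.58 ± 0.14 (SE, adjusted p = 0.00493) in wt, and the interaction was 4.59 ± 0.20 (SE, adjusted p = 2.33e-08).

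Ctsk had 337, 231 and 326 CPM in the ko CL libraries, 25.2, 33.7 and 31.1 CPM in ko saline, 27.1, 24.3 and 26.3 CPM in wt CL and 26.1, 22.1 and 23.2 CPM in wt saline. Ctsk (ENSMUSG00000028111, chromosome 3, 95499256 to 95509362), the collagen-cleaving protease best known from osteoclasts, did not overlap between ko CL and the other groups, which overlapped among themselves. The log2 fold change was 3.31 ± 0.15 (SE, adjusted p = 4.25e-09) in ko and 0.12 ± 0.15 (SE, adjusted p = 0.549) in wt. Of 8 other genes of osteoclasts and giant cells that were tested, 4 were higher and 2 lower with CL in ko (median 0.494). The shares of all genes were 27.2% higher and 27.5% lower. The list of 9 osteoclast and giant cell genes summed to 349 to 394.9 CPM in ko CL and 431 to 483.3 CPM in ko saline. Acp5 averaged 217 ± 27.8 CPM in ko CL and 384 ± 24.7 CPM in ko saline. Without it, the sums were 127.9 to 162.1 CPM in ko CL and 70.66 to 73.71 CPM in ko saline. Leaving out Acp5 was chosen after its values were seen.

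Ctsb had 7855, 5746 and 6243 CPM in the ko CL libraries, 2167, 2146 and 2219.6 CPM in ko saline, 2155, 1936 and 2018 CPM in wt CL and 1952, 2121 and 2084 CPM in wt saline. Ctsb, an abundant endopeptidase, was 3.04-fold as high in ko CL as in ko saline (log2 fold change 1.60 ± 0.11 SE, adjusted p = 1.13e-07) while wt gave -0.01 ± 0.11 (SE, adjusted p = 0.945). For Ctsb, ko CL lay above all others, which stood close together. Ctsh had 263, 214 and 217 CPM in the ko CL libraries, 107, 107 and 103 CPM in ko saline, 75.3, 69.4 and 72.9 CPM in wt CL and 98.9, 90.7 and 95.7 CPM in wt saline. The ko CL libraries of Ctsh, an aminopeptidase, lay above all others and the wt CL libraries below all others, with log2 fold changes of 1.13 ± 0.08 (SE, adjusted p = 1.2e-07) in ko and -0.39 ± 0.08 (SE, adjusted p = 0.00208) in wt.

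Ctsl, an endopeptidase with broad specificity, averaged 5627 ± 1126 CPM in ko CL, 1713 ± 164 CPM in ko saline, 678 ± 85.8 CPM in wt CL and 977 ± 51.8 CPM in wt saline. It was the member with the largest genotype difference under saline, at 0.81 ± 0.14 (SE, adjusted p = 0.00342). Ctsz, a carboxypeptidase, had a log2 fold change of 1.79 ± 0.13 (SE, adjusted p = 1.35e-07) in ko. In wt, Ctsl and Ctsz were lower with CL, but neither kept the call without the second wt CL library (adjusted p = 0.055 and 0.0661), and Ctsz also lost it without wt saline library 3 (adjusted p = 0.0687).

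Ctsf and Ctsc went another way. Ctsf had 48.1, 45.5 and 43.9 CPM in the ko CL libraries, 69.04, 80.03 and 71.99 CPM in ko saline, 42.4, 40.7 and 41.6 CPM in wt CL and 53.4, 57.3 and 62.7 CPM in wt saline. The CL libraries were below the saline libraries in both genotypes, with log2 fold changes of -0.68 ± 0.07 (SE, adjusted p = 5.73e-06) in ko and -0.48 ± 0.07 (SE, adjusted p = 0.000334) in wt, and the interaction did not pass the test (adjusted p = 0.127). Ctsc had 269.6, 233 and 222 CPM in the ko CL libraries, 247, 227 and 244 CPM in ko saline, 174, 173 and 190.5 CPM in wt CL and 263, 245 and 243 CPM in wt saline. Ctsc, which activates the serine proteases of immune cell granules, had log2 fold changes of 0.01 ± 0.08 (SE, adjusted p = 0.906) in ko and -0.48 ± 0.08 (SE, adjusted p = 0.000493) in wt. Its positive interaction (0.49 ± 0.11 SE, adjusted p = 0.00314) therefore went with lower wt CL libraries and with ko libraries that overlapped.

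Ctsa and Ctsd are cathepsins of other classes. Ctsa had 622, 419.7 and 452 CPM in the ko CL libraries, 152, 161 and 154 CPM in ko saline, 136, 131 and 119.9 CPM in wt CL and 162, 173 and 177 CPM in wt saline. Ctsa, a serine carboxypeptidase that protects Glb1 and Neu1 in a complex, had log2 fold changes of 1.68 ± 0.12 (SE, adjusted p = 1.73e-07) in ko and -0.40 ± 0.12 (SE, adjusted p = 0.0187) in wt. The wt call was lost without wt saline library 3 or wt CL library 3 (adjusted p = 0.0587 and 0.0783), although the wt CL libraries lay below all others and the ko CL libraries above them. Ctsd had 551, 419.9 and 502 CPM in the ko CL libraries, 247, 233 and 269 CPM in ko saline, 388, 335 and 345 CPM in wt CL and 201, 229 and 231 CPM in wt saline. Ctsd, the aspartic protease, was higher with CL in both genotypes, with log2 fold changes of 0.98 ± 0.10 (SE, adjusted p = 5.46e-06) in ko and 0.69 ± 0.10 (SE, adjusted p = 0.000246) in wt. The ko CL libraries were the highest, followed by wt CL and then both saline groups. The interaction of Ctsd was 0.29 ± 0.15 (SE, adjusted p = 0.131), and it was called without ko CL library 2 (adjusted p = 0.0303). In GENCODE M21, 34.368% of the exon bases of Ctsd are shared with Gm49369 on the same strand, and how reads there were assigned is not given in the sources used here. Ctsl and Glb1 share 6.087% and 5.485% of theirs with another gene on the same strand.

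All 6 glycosidases, which remove sugars from glycolipids and glycoproteins, were higher with CL in ko (median 1.4), and 5 were lower with CL in wt (median -0.32). Of all genes tested, 27.2% were higher in ko and 17.1% lower in wt. Gla had 86.5, 55.6 and 66.8 CPM in the ko CL libraries, 11.97, 10.7 and 9.29 CPM in ko saline, 8.66, 7.93 and 8.4 CPM in wt CL and 9.41, 10.4 and 10.5 CPM in wt saline. Gla, alpha-galactosidase A (ENSMUSG00000031266, chromosome X, 134588149 to 134601125), was 6.56-fold as high in ko CL as in ko saline, and no ko CL library came near another group (log2 fold change 2.71 ± 0.14 SE, adjusted p = 1.33e-08). Its log2 fold change in wt was -0.28 ± 0.16 (SE, adjusted p = 0.192). Man2b1 had 666, 532 and 526 CPM in the ko CL libraries, 216, 221 and 233 CPM in ko saline, 157, 152 and 142 CPM in wt CL and 190.2, 194 and 195 CPM in wt saline. Man2b1, the alpha-mannosidase, had log2 fold changes of 1.37 ± 0.09 (SE, adjusted p = 6.2e-08) in ko and -0.36 ± 0.09 (SE, adjusted p = 0.00606) in wt, with ko CL above and wt CL below every other library.

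Hexa had 656, 463 and 458 CPM in the ko CL libraries, 175, 165 and 168 CPM in ko saline, 130.3, 118 and 129 CPM in wt CL and 147, 168 and 176 CPM in wt saline. Hexa, the alpha subunit of beta-hexosaminidase, had log2 fold changes of 1.64 ± 0.12 (SE, adjusted p = 2.65e-07) in ko and -0.38 ± 0.12 (SE, adjusted p = 0.0267) in wt. For Hexa too, ko CL was the highest group and wt CL the lowest, but the wt call was lost without any 1 of 5 wt libraries (adjusted p between 0.0501 and 0.0966). Gusb, beta-glucuronidase, changed by 1.43 in ko, Glb1, beta-galactosidase, by 0.45, and Neu1, the sialidase, by 0.35. All 3 passed the test in ko (adjusted p = 6.38e-07, 0.000342 and 0.00138). Their log2 fold changes in wt, -0.37, -0.26 and -0.25, passed the test with all libraries but not without the second wt CL library (adjusted p = 0.0914, 0.0526 and 0.0968), and each call was also lost without at least 1 other wt library.

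The 4 members that handle lipids and sphingolipids split into 3 that rose with CL in ko, beside 27.2% of all genes, and Npc2, which did not pass. Lipa had 1043, 599.5 and 748 CPM in the ko CL libraries, 112, 102 and 101 CPM in ko saline, 131, 116 and 119.5 CPM in wt CL and 96.9, 104 and 96.2 CPM in wt saline. Lipa, lysosomal acid lipase (ENSMUSG00000024781, chromosome 19, 34492318 to 34527474), which hydrolyses cholesteryl esters and triglycerides, changed by 2.92 ± 0.16 (SE, adjusted p = 1.58e-08) in ko, and the ko CL libraries lay far above a narrow range of all others. In wt the log2 fold change was 0.31 ± 0.15 (SE, adjusted p = 0.132), and it was called without ko CL library 1 (adjusted p = 0.0199). Psap had 8285, 6326 and 6869 CPM in the ko CL libraries, 1600.1, 1641 and 1649 CPM in ko saline, 1712, 1574 and 1614 CPM in wt CL and 1552, 1688 and 1734 CPM in wt saline. Psap, the precursor of the saposins that present sphingolipids to their hydrolases, was 4.39-fold as high in ko CL as in ko saline (log2 fold change 2.14 ± 0.10 SE, adjusted p = 7.88e-09) and gave -0.02 ± 0.10 (SE, adjusted p = 0.887) in wt. In Psap too, ko CL stood above the other groups, which overlapped.

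Npc1 had 162, 124 and 133 CPM in the ko CL libraries, 55.98, 55.4 and 65.9 CPM in ko saline, 55.7, 52.4 and 49.02 CPM in wt CL and 53.4, 55.6 and 59.9 CPM in wt saline. Npc1, the membrane protein that moves cholesterol out of the lysosome (ENSMUSG00000024413, chromosome 18, 12189692 to 12236400), had log2 fold changes of 1.24 ± 0.10 (SE, adjusted p = 5.03e-07) in ko and -0.10 ± 0.10 (SE, adjusted p = 0.458) in wt. Its ko CL libraries stood above the other groups, which overlapped. Npc2 had 816, 794 and 765 CPM in the ko CL libraries, 892, 808 and 827 CPM in ko saline, 785, 762 and 793 CPM in wt CL and 630.1, 782 and 797 CPM in wt saline. Npc2, its soluble partner that carries cholesterol to it (ENSMUSG00000021242, chromosome 12, 84754562 to 84773152), overlapped between CL and saline in both genotypes, with log2 fold changes of -0.09 ± 0.09 (SE, adjusted p = 0.418) in ko and 0.08 ± 0.09 (SE, adjusted p = 0.503) in wt. Levels per kb of exon divide by the merged exons of all annotated transcripts of a gene, so orders between genes depend on that annotation. Per kb of exon, Npc2 was among the more abundant members in wt saline (135 ± 17.01 CPM per kb), far above Npc1 (4.97 ± 0.294 CPM per kb).

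Membrane proteins rose by less. Lamp1 had 1369, 1182 and 1246 CPM in the ko CL libraries, 998, 955 and 969 CPM in ko saline, 818, 768 and 809 CPM in wt CL and 772, 776 and 773 CPM in wt saline. Lamp1, a heavily glycosylated protein of the lysosome membrane, had log2 fold changes of 0.38 ± 0.07 (SE, adjusted p = 0.000718) in ko and 0.04 ± 0.07 (SE, adjusted p = 0.664) in wt. Its ko CL libraries were highest, then ko saline, and the wt groups overlapped. Lamp2 had 555, 448 and 479 CPM in the ko CL libraries, 375, 345 and 362 CPM in ko saline, 326, 305 and 323 CPM in wt CL and 322, 341 and 352 CPM in wt saline. Lamp2, its relative that also acts in autophagy, had log2 fold changes of 0.45 ± 0.08 (SE, adjusted p = 0.000479) in ko and -0.09 ± 0.08 (SE, adjusted p = 0.417) in wt, with ko CL above all other libraries. Mcoln1 had 61.7, 50.9 and 53.2 CPM in the ko CL libraries, 44.6, 41.04 and 45.6 CPM in ko saline, 53.9, 54.6 and 51.004 CPM in wt CL and 47.5, 49.4 and 51.4 CPM in wt saline. Mcoln1, the cation channel that releases lysosomal calcium, had log2 fold changes of 0.34 ± 0.08 (SE, adjusted p = 0.00214) in ko and 0.11 ± 0.08 (SE, adjusted p = 0.303) in wt, and its interaction did not pass (0.23 ± 0.11 SE, adjusted p = 0.096), although it was called without ko CL library 2 (adjusted p = 0.0439) and when libraries were scaled by their totals alone. The ko CL libraries of Mcoln1 overlapped the wt libraries, and ko saline was the lowest group.

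The proton pump did not move as 1 unit. Of 7 members, 5 were higher with CL in ko (median 0.76), and 3 were higher with CL in wt (median 0.226), of which Atp6v1b2 and Atp6v1h were not called when libraries were scaled by their totals alone. Of all genes tested, 27.2% were higher with CL in ko and 19.6% in wt. Atp6v1b2 had 610.3, 455 and 524 CPM in the ko CL libraries, 196, 181 and 181 CPM in ko saline, 200.2, 186 and 185 CPM in wt CL and 142, 142 and 146 CPM in wt saline. Atp6v1b2, the B subunit that with A forms the ATP-hydrolysing ring, had log2 fold changes of 1.51 ± 0.09 (SE, adjusted p = 4.08e-08) in ko and 0.41 ± 0.09 (SE, adjusted p = 0.00358) in wt. Its ko CL libraries were the highest and its wt saline libraries the lowest. Atp6v1a had 495, 369 and 447 CPM in the ko CL libraries, 188, 159 and 161 CPM in ko saline, 236, 224 and 257 CPM in wt CL and 144, 157 and 152 CPM in wt saline. Atp6v1a, the A subunit, was higher with CL in both genotypes, with log2 fold changes of 1.37 ± 0.11 (SE, adjusted p = 2.97e-07) in ko and 0.67 ± 0.10 (SE, adjusted p = 0.000334) in wt. Its groups did not overlap and ran from ko CL at the top through wt CL and ko saline to wt saline. Atp6v1c1 had 166, 126 and 145 CPM in the ko CL libraries, 71.7, 69.1 and 64.7 CPM in ko saline, 84.7, 78.8 and 87.4 CPM in wt CL and 72.2, 71.9 and 70.4 CPM in wt saline. Atp6v1c1, the C subunit that helps to join V1 to V0, had log2 fold changes of 1.09 ± 0.09 (SE, adjusted p = 4.41e-07) in ko and 0.23 ± 0.09 (SE, adjusted p = 0.0608) in wt, where it was called without ko CL library 1 or 2 (adjusted p = 0.0284 and 0.0273).

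Atp6v1h had 143, 137 and 136 CPM in the ko CL libraries, 161, 148 and 138 CPM in ko saline, 156, 148 and 173 CPM in wt CL and 119, 129 and 131 CPM in wt saline. Atp6v1h, the regulatory H subunit, was the member with a negative interaction, at -0.44 ± 0.11 (SE, adjusted p = 0.00475). CL gave a log2 fold change of -0.11 ± 0.07 (SE, adjusted p = 0.246) in ko and 0.33 ± 0.08 (SE, adjusted p = 0.00426) in wt, and only the wt saline libraries stood apart, below all others. Its lower level in ko than in wt under CL (-0.20 ± 0.08 SE, adjusted p = 0.0381) was not called without wt CL library 1 or 3 or ko CL library 2 or 3, and turned to 0.19 when libraries were scaled by their totals alone. Atp6v0d1, the common d subunit, had log2 fold changes of 0.10 ± 0.06 (SE, adjusted p = 0.193) in ko and 0.02 ± 0.06 (SE, adjusted p = 0.799) in wt, with overlapping libraries in ko. Atp6v0a1, an a subunit of V0, changed by 0.76 ± 0.16 (SE, adjusted p = 0.00141) in ko, and Atp6ap1, an accessory subunit, by 0.38 ± 0.07 (SE, adjusted p = 0.000837). Neither passed in wt (adjusted p = 0.32 and 0.334).

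The largest pump responses were in genes outside the 33. Among the 18 other proton pump genes 14 were tested, and 8 were higher and 3 lower with CL in ko (median 0.334). The shares of all genes were 27.2% higher and 27.5% lower. Atp6v0d2 had 799, 493 and 577 CPM in the ko CL libraries, 3.99, 6.26 and 6.03 CPM in ko saline, 9.95, 2.77 and 1.58 CPM in wt CL and 2.94, 3.72 and 2.88 CPM in wt saline. Atp6v0d2, the d subunit known from osteoclasts and macrophages, was thus high in every ko CL library and low in every other library, with a log2 fold change of 6.84 ± 0.42 (SE, adjusted p = 3.95e-08) in ko and 0.57 ± 0.50 (SE, adjusted p = 0.407) in wt. Per kb of exon it averaged 229 ± 58.3 CPM per kb in ko CL against 81.4 ± 3.93 for Atp6v0d1, a ratio of 2.82. In ko saline these levels were 1.998 ± 0.461 for Atp6v0d2 and 76.01 ± 2.32 for Atp6v0d1, a ratio of 0.0263.

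Tcirg1 had 213, 154 and 172 CPM in the ko CL libraries, 26.2, 27.7 and 29.996 CPM in ko saline, 29.9, 26.6 and 25.7 CPM in wt CL and 28.7, 31.7 and 32.3 CPM in wt saline. Tcirg1, the a subunit of the osteoclast pump, had log2 fold changes of 2.68 ± 0.11 (SE, adjusted p = 3.46e-09) in ko and -0.17 ± 0.11 (SE, adjusted p = 0.253) in wt. Its ratio to Atp6v0a1, per kb of exon, was 0.59 in ko CL, 0.155 in ko saline, 0.219 in wt CL and 0.213 in wt saline. Atp6v0e2, an e subunit, was lower with CL in both genotypes, with log2 fold changes of -1.74 ± 0.08 (SE, adjusted p = 4.01e-09) in ko and -0.97 ± 0.07 (SE, adjusted p = 1.88e-06) in wt. Atp6v0c, Atp6v1b1 and Atp6v1g3 were counted at 0 in all libraries and are not described, and whether this reflects their levels is not known.

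**Figure D3:**
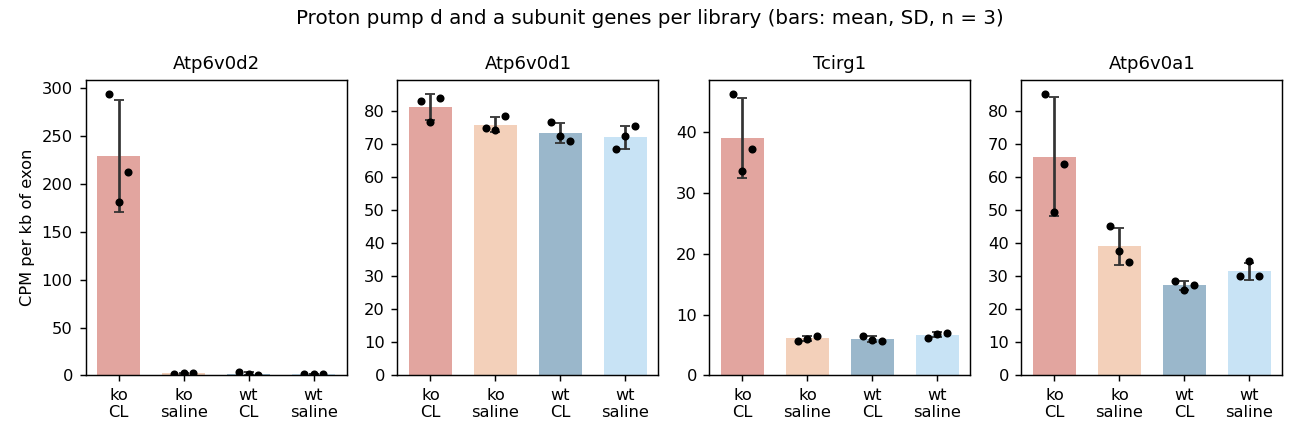
The panels give CPM per kb of exon for 2 pairs of alternative proton pump subunits, with 1 point per library and bars for the mean and SD of 3 libraries. Atp6v0d2 and Tcirg1 are near their saline levels except in ko CL, while Atp6v0d1 has group means between 72.2 and 81.4.

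All 3 MiT members rose with CL in ko and none was called in wt. Of all genes tested, 27.2% were higher in ko, and 19.6% were higher and 17.1% lower in wt. Mitf had 101, 65.2 and 69.4 CPM in the ko CL libraries, 19.8, 15.2 and 17.6 CPM in ko saline, 14.6, 14.1 and 14.8 CPM in wt CL and 18.3, 16.97 and 20.995 CPM in wt saline. Mitf, the member of the family known from melanocytes, osteoclasts and macrophages (ENSMUSG00000035158, chromosome 6, 97807052 to 98021349), had log2 fold changes of 2.16 ± 0.15 (SE, adjusted p = 1.29e-07) in ko and -0.37 ± 0.16 (SE, adjusted p = 0.0906) in wt. Mitf was highest in the ko CL and lowest in the wt CL libraries, and the wt difference was called without ko CL library 1 or 2 (adjusted p = 0.0104 and 0.0497). The melanocyte genes Tyr, Tyrp1, Mlana and Sox10 had 6, 11, 16 and 42 counts in total over the 12 libraries. Dct and Pmel, the 2 other melanocyte markers, were tested. With CL in ko 1 was lower, beside 27.5% of all genes, and both interactions were negative, beside 23.6%. Dct had 0.485, 2.07 and 1.34 CPM in ko CL and 3.26, 2.09 and 3.89 CPM in ko saline. It had 7.27, 7.88 and 9.82 CPM in wt CL and 5.5, 6.36 and 6.01 CPM in wt saline. Tfeb had 24.4, 18.7 and 17.4 CPM in the ko CL libraries, 6.42, 7.62 and 7.24 CPM in ko saline, 8.72, 7.44 and 6.21 CPM in wt CL and 8.59, 7.45 and 7.01 CPM in wt saline. For Tfeb, ko CL lay above the other groups, which overlapped. Tfeb, the best known activator of lysosomal genes, had log2 fold changes of 1.51 ± 0.15 (SE, adjusted p = 3e-06) in ko and -0.04 ± 0.16 (SE, adjusted p = 0.852) in wt.

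Tfec had 6.72, 6.01 and 5.09 CPM in the ko CL libraries, 2.32, 1.83 and 2.04 CPM in ko saline, 1.12, 1.03 and 0.865 CPM in wt CL and 1.73, 1.64 and 0.961 CPM in wt saline. Tfec, a family member with a narrow expression in macrophages, was the scarcest of the 33, and had log2 fold changes of 1.52 ± 0.22 (SE, adjusted p = 6.69e-05) in ko and -0.52 ± 0.25 (SE, adjusted p = 0.128) in wt. Without the third wt saline library its decrease in wt was called (-0.75, adjusted p = 0.0272). The interactions of Mitf, Tfeb and Tfec were 2.53, 1.55 and 2.04 (adjusted p = 1.83e-06, 9.47e-05 and 0.000303). Tfe3 had 85.4, 74.3 and 77.6 CPM in the ko CL libraries, 41.4, 43.02 and 42.3 CPM in ko saline, 44.6, 47.7 and 44.997 CPM in wt CL and 47.98, 46.5 and 42.5 CPM in wt saline. Tfe3, the fourth gene of the family and not among the 33, had log2 fold changes of 0.90 ± 0.07 (SE, adjusted p = 2.11e-07) in ko and 0.00 ± 0.07 (SE, adjusted p = 0.964) in wt. In wt saline, Tfe3 was the most abundant of the family per kb of exon (4.93 ± 0.308 CPM per kb), above Mitf (3.03 ± 0.332), Tfeb (1.35 ± 0.144) and Tfec (0.258 ± 0.0754). In ko CL, Mitf (12.7 ± 3.11 CPM per kb) had the highest mean, ahead of Tfe3 (8.54 ± 0.616), Tfeb (3.55 ± 0.655) and Tfec (1.06 ± 0.147).

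**Figure D4:**
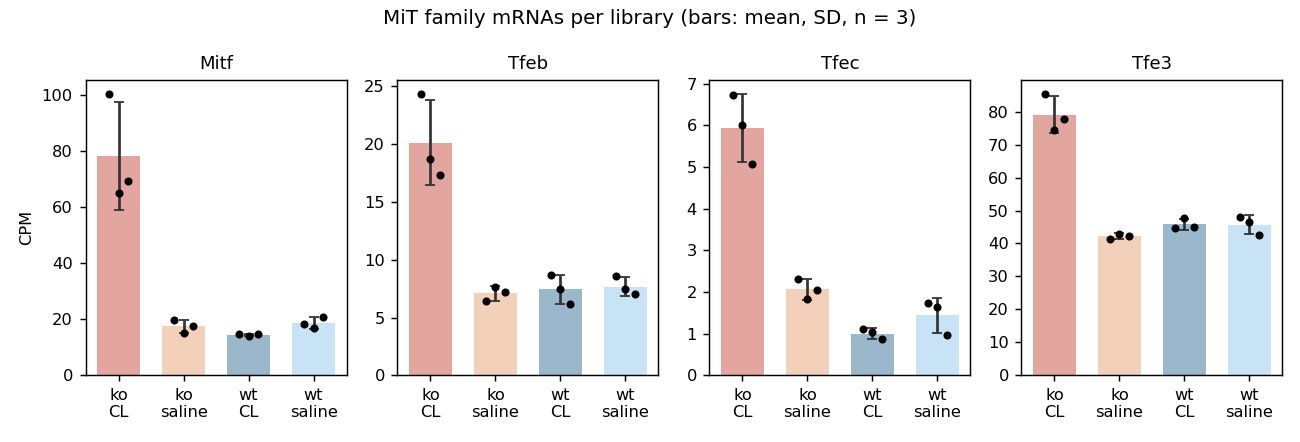
The panels show the CPM of Mitf, Tfeb, Tfec and Tfe3 in each library, with bars for the mean and SD of 3 libraries per group and a separate vertical scale for each gene. The ko CL libraries are the highest in each panel, and the other groups lie closer together. Among them, the Tfec points of ko saline lie above those of both wt groups. The Mitf points of wt CL lie below all others, and the Tfe3 points of ko saline lie below those of wt CL.

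The members differed widely in level. Per kb of exon, Psap was the most abundant in ko CL (2609 ± 369 CPM per kb), followed by Ctss (1183 ± 203), Ctsb (1093 ± 182) and Ctsl (867 ± 174). The merged exon length was 1358 bases for Ctss, 6051 for Ctsb and 6489 for Ctsl, and the order depends on these lengths. In CPM, not divided by length, Ctsb and Ctsl were above Ctss in each ko CL library. Per kb, the intervals of Ctss and Ctsb overlapped within their SD. Both were measured in the same libraries, so this overlap does not decide their order. Within each ko CL library, Ctss was above Ctsb per kb. In wt saline the order was Psap (604 ± 34.4 CPM per kb), Ctsb (339 ± 14.6), Lamp1 (289 ± 0.854) and Ctsl (150.5 ± 7.98), with Ctss at rank 11 (62.8 ± 4.21). Psap, Ctsb and Ctsl together made up 61.9% to 64.1% of the members' summed CPM in ko CL, 50.3% to 50.8% in ko saline, 47.2% to 48.6% in wt CL and 49.4% to 49.8% in wt saline.

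**Figure D5:**
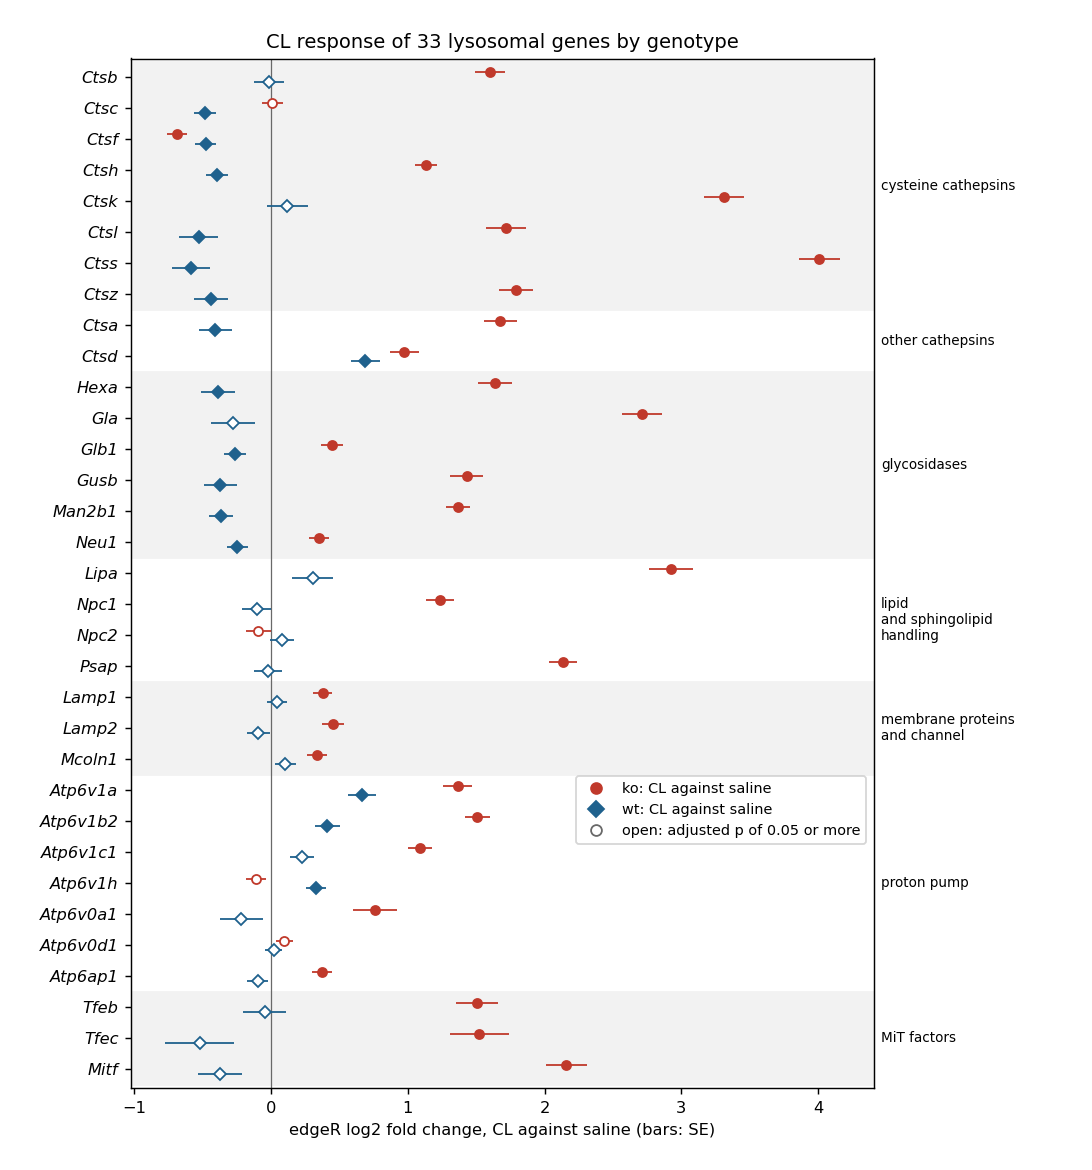
The horizontal axis gives the edgeR log2 fold change of CL against saline with its SE, for ko (circles) and wt (diamonds), with the 33 lysosomal genes as rows and open symbols where the adjusted p was 0.05 or more. The ko values reach 4.01 in Ctss while the wt values stay between -0.583 and 0.691, and Ctsc and Ctsf show lower wt CL levels without an increase in ko.

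Between the genotypes under saline the differences were small. The 6 members higher in ko saline than in wt saline were Ctsl (0.81), Gusb (0.46), Glb1 (0.43), Atp6v1b2 (0.38), Ctsf (0.35) and Lamp1 (0.33), with adjusted p between 0.00342 and 0.0241. Gusb lost the call without any 1 of 5 saline libraries and Atp6v1b2 without any 1 of 3. Without the first ko CL library 10 members were called higher, beside 9.74% of all genes. Scaling by library totals alone gave 19 higher members, beside 22.6% of all genes, with the median of all genes moved to 0.148. No macrophage marker of the 19 tested was called between these groups (median -0.0482). Of 12 adipocyte markers, 8 were lower in ko, beside 6.45% of all genes. Ciliated duct genes summed to 80.61 to 109.1 CPM in ko saline, against 37.39, 2.842 and 4.377 CPM in wt saline, and their part in the genotype difference was not tested.

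Other lysosomal genes were counted from lists outside the 33. With CL, 27.2% of all genes tested were higher and 27.5% lower in ko, and 19.6% and 17.1% in wt. Of 31 other hydrolases and cofactors, 20 were higher and 6 lower with CL in ko (median 0.392), and 1 was higher and 16 lower with CL in wt (median -0.226). Lgmn, an asparagine-specific protease, had a log2 fold change of 2.73 ± 0.14 (SE, adjusted p = 8.17e-09) in ko, and Pla2g15, a phospholipase, had 1.49 ± 0.09 (SE, adjusted p = 3.66e-08). The 6 lower ones were Acp5, Aga, Ctso, Ggh, Hyal1 and Smpd1.

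Of 22 other membrane and sorting genes, 11 were higher and 4 lower with CL in ko (median 0.22), beside 27.2% and 27.5% of all genes. Laptm5, a lysosomal membrane protein of blood cells, was at 2.49, Tpcn2, a lysosomal cation channel, at 2.61 and Grn, progranulin, at 1.64 (adjusted p = 6.96e-09, 2.87e-08 and 5.1e-08). In wt, 5 of these genes were higher and 4 lower, beside 19.6% and 17.1% of all genes.

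Of 23 genes for nutrient sensing at the lysosome and control of MiT factors, 11 were higher and 2 lower with CL in ko (median 0.25), and 6 higher and none lower in wt. Among all genes, 27.2% were higher and 27.5% lower in ko, and 19.6% and 17.1% in wt. Fnip2 and Flcn, which form a complex that acts on the Rag GTPases and thereby on Tfeb and Tfe3, changed by 2.26 ± 0.14 (SE, adjusted p = 3.9e-08) and 0.79 ± 0.08 (SE, adjusted p = 2.43e-06) in ko. Rheb, which activates mTORC1, and Tsc2, which restrains it, were the 2 lower genes.

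Of 20 autophagy genes tested, 7 were higher and 6 lower with CL in ko (median 0.0443), beside 27.2% and 27.5% of all genes. Vps18, part of complexes that tether vesicles to lysosomes, was at 1.35 (adjusted p = 4.4e-06), Rab7, a GTPase of late endosomes, at 0.37 (adjusted p = 0.000792) and Wipi2, which acts on early autophagosomes, at -0.27 (adjusted p = 0.000996). Of 5 cathepsin inhibitors tested, 3 were higher with CL in ko and none lower (median 0.66). Cstb, a cytosolic cystatin, changed by 1.65 ± 0.11 (SE, adjusted p = 7.38e-08) and Serpinb6a, a serpin, by 1.30 ± 0.11 (SE, adjusted p = 5.28e-07). Cst3, the secreted cystatin C, had log2 fold changes of 0.14 ± 0.12 (SE, adjusted p = 0.353) in ko and -0.68 ± 0.13 (SE, adjusted p = 0.00111) in wt.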

How the data were processed

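RNA-seq of 12 pools of mouse perigonadal fat was deposited as 1 file of raw read counts per gene and pool, produced by the authors on GRCm38 using STAR and HTSeq per the submitters' processing notes (versions not given in the sources used here) and on the reverse strand per the file names. Summary lines held 12.45% to 17.23% of reads and were left out of totals and tests. Identifiers were matched to GENCODE M21 (53274 of 53379). Replicate libraries of a group differed beyond sampling noise (chi-square per degree of freedom 7.08 to 58.9 over 12 pairs). The quasi-likelihood test came from edgeR 4.0.16 in R 4.3.3, with these settings: filterByExpr with a minimum count of 10, TMM scaling, 1 mean per group, all libraries in 1 fit and 8 residual degrees of freedom. There were 5 contrasts: CL against saline within ko and within wt, ko against wt within CL and within saline, and the interaction. Each was adjusted by Benjamini-Hochberg over 16554 genes. Counting error and mouse-to-mouse spread within a pool are not separated. Values per library are given for members with the 3 smallest adjusted p of a role group for CL against saline in ko or for the interaction, for role groups of 4 or fewer, and for members that moved against their group. Ctsl, Lyz2 and the genes listed as lower were added after their values were seen. From other lists, up to 3 genes with the smallest adjusted p are named, and 1 such gene is not reported here. The members and lists were chosen with earlier results of these data known. Alternatives were scaling by DESeq2 size factors or library totals, no low-count filter, DESeq2 1.42.0, fits of the compared groups alone, a replicate block, leaving out each library, and the other genotype label. Promoter windows and motif shares come from RefSeq tables of GRCm38.p6. Proteins were not analysed here.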

Additional observations from a re-analysis of the deposited data

Results flagged for a closer look

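The response to CL differed between ko and wt in 28 of the 33 lysosomal genes by the interaction test of edgeR. It was positive in 27 and negative in 1, beside 21.8% and 23.6% of all genes tested. Each value is the log2 response in ko minus that in wt. Among cysteine cathepsins the difference was 4.59 for Ctss, 3.19 for Ctsk, 2.24 for Ctsl, 2.23 for Ctsz, 1.61 for Ctsb, 1.52 for Ctsh and 0.494 for Ctsc, and Ctsa was at 2.08. Among glycosidases it was 2.99 for Gla, 2.02 for Hexa, 1.8 for Gusb, 1.73 for Man2b1, 0.706 for Glb1 and 0.598 for Neu1. For lipid handling it was 2.62 for Lipa, 2.16 for Psap and 1.34 for Npc1, and for membrane proteins 0.543 for Lamp2 and 0.333 for Lamp1. For the proton pump it was 1.09 for Atp6v1b2, 0.974 for Atp6v0a1, 0.862 for Atp6v1c1, 0.701 for Atp6v1a, 0.473 for Atp6ap1 and -0.437 for Atp6v1h. For MiT factors it was 2.53 for Mitf, 2.04 for Tfec and 1.55 for Tfeb. Each of these calls held with any 1 of the 12 libraries left out. The call of Lamp1 was lost with no filter on low counts and that of Atp6v1h with scaling by library totals alone. Summed macrophage markers moved the same way as the positive values, and their part in these differences was not tested. Groups of 3 libraries are too small for the test of single outlying libraries.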

How the results depend on the processing

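The 28 members called higher for CL against saline in ko were 28 in number under every alternative and with each library left out, and the 27 positive interactions were within 1.5 times of that number throughout. Scaling by library totals alone, which moved the median of all genes to -0.327 for CL in wt, 0.387 for ko against wt under CL and 0.148 under saline, changed the counts most. It gave 2 members lower with CL in ko, 2 higher and 25 lower with CL in wt, 0 lower in ko than in wt under CL, 19 higher in ko under saline and 0 negative interactions, with member medians of -0.419 for CL in wt, 1.82 for ko against wt under CL and 0.323 under saline. Of all genes, that scaling called 33.1% lower with CL in ko, and 8.03% higher and 48.6% lower with CL in wt. For ko against wt it called 13.5% lower under CL and 22.6% higher under saline, and 13.7% of interactions were negative. It also reversed Npc2 (-0.2314), Lamp1 (-0.2715), Mcoln1 (-0.2092) and Atp6v0d1 (-0.2915) for CL in wt and Atp6v1h (0.1877) for ko against wt under CL. The single member lower in ko than in wt under CL, Atp6v1h, gave 0 calls with no filter on low counts and with the compared groups alone. The compared groups alone also gave 10 members higher in ko under saline, beside 8.53% of all genes. With DESeq2 the counts higher and lower were 28 and 1 for CL in ko, 4 and 12 for CL in wt, 29 and 1 for ko against wt under CL, 8 and 0 under saline and 27 and 1 for the interaction. Its shares of all genes were 26.1% and 27% for CL in ko and 18.4% and 18.7% for CL in wt. They were 27.8% and 27.9% under CL, 8.54% and 7.26% under saline and 21.8% and 22.8% for the interaction. With 1 library left out, members lower with CL in wt numbered 6 to 13, those lower in ko than in wt under CL 0 to 1, and those higher in ko under saline 4 to 10. The shares of all genes in these fits were 12.3% to 19.4%, 26.3% to 29.7% and 3.01% to 9.74%. With the genotype characteristic in place of the titles, Cdk7 was 0.3615 higher in the group called knockout, against -0.9659 by title.

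The replicate numbers did not pair the libraries: of 18 same-numbered pairs, 2 had a correlation of deviations over 0.1 (range -0.355 to 0.176), and 4 of 12 libraries correlated best with their own number. With the replicate block, 28 members were higher with CL in ko, 13 lower with CL in wt and 0 lower in ko than in wt under CL. The shares of all genes with the block were 26%, 16% and 28.5%. The cause of these changes was not tested. Depth limits Tfec most, with 17 to 194 counts per library.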
